A study of Mus musculus with 2 samples.

Results

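Open chromatin was examined at 4 gene clusters that belong to the 2-cell-stage programme of the mouse embryo, in an embryonic stem cell line with 2 distinguishable parental genomes. The windows were chosen by position alone. They are the rows of the allele-specific ATAC-seq table that lie inside chr10:57800001-58600000 (the Duxf3 cluster), chr4:142800001-144500000 (the Pramef cluster), chr7:10500001-11600000 (the Zscan4 cluster) and chr13:119200001-120300000 (the Tcstv cluster), in mm10 coordinates. These intervals hold 94 steps of a 50 kb grid, of which 56 are rows of the table, out of 43941 rows in all. The clusters were proposed with results of this table in view, so their own levels, allelic shares and p-values are given as a description.

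The line, F121-6, is a female hybrid of 129 and castaneus (CAS) mice, so each cell carries 1 chromosome set from each. It was grown with serum and LIF on mouse embryonic fibroblasts whose division had been blocked with mitomycin C. In ATAC-seq a transposase cuts accessible DNA and tags it for sequencing. There were 2 replicates of 1 group, each split into a 129 and a CAS count, and the labels do not say if these were separate cultures. The p-values below therefore carry no more than counting error and the spread between 2 libraries, which may be technical. Replicate 1 summed to 44026 counts on 129 and 46128 on CAS, and replicate 2 to 59812 on 129 and 59995 on CAS. What a count stands for is not given in the sources used here, and the highest value in any window was 18. The 6 stem cell markers Pou5f1, Nanog, Sox2, Esrrb, Zfp42 and Klf4 had 2 to 28 counts per gene and column, summed over a gene's windows. Esrrb, with the 28, overlaps 4 windows and Pou5f1 overlaps 1. Fibroblast markers were summed alike, over 1 (Postn) to 3 windows (Cd44), so the 2 sets are not on 1 scale. Of 7 fibroblast markers, which feeder cells express, 6 had a count, at 0 to 4 per gene and column, and Postn was at 0; the part of feeder cells in the values below was not tested.

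Dux, annotated here as Duxf3, encodes a double homeodomain transcription factor that is active when the embryonic genome switches on at the 2-cell stage. It activates other 2-cell-stage genes, among them the Zscan4 genes, which encode SCAN domain zinc finger proteins linked to telomere maintenance, and the Tcstv genes. In stem cell cultures a small and changing minority of cells enters a state of this kind, while most cells keep these genes silent. All 4 loci belong to families of tandem copies, and PRAME-like genes (Pramef, Pramel and the oogenesins Oog2, Oog3 and Oog4) are known mainly from oocytes, early embryos and germ cells.

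How alike the copies are is visible in the 250 bases before the annotated starts of the Zscan4 genes, taken from RefSeq promoters (GRCm38.p6, the assembly that mm10 names). Sequences matched 4 of the 6 named genes (Duxf3, Zscan4c, Zscan4d and Zscan4f). The stretch of Zscan4c is chr7:11005495-11005744 on the plus strand, that of Zscan4d chr7:11166149-11166398 on the minus strand and that of Zscan4f chr7:11397665-11397914 on the plus strand. Capitals mark bases that differ from Zscan4c in the part that the aligned sequences share, and each runs 5′ to 3′.
Zscan4c: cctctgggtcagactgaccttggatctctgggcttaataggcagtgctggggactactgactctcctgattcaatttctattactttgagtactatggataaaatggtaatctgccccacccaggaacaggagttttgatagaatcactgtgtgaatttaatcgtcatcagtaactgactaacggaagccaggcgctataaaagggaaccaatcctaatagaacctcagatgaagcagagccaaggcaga
Zscan4d: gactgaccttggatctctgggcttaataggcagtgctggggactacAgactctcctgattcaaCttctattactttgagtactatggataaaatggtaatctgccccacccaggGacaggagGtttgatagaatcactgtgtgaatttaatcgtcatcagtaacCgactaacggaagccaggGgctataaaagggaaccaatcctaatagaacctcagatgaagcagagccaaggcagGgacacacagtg
Zscan4f: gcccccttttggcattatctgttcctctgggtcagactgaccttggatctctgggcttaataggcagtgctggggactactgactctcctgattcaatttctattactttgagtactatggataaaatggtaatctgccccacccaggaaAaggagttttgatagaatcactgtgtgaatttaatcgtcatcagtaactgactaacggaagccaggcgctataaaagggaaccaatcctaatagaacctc

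Zscan4f differed from Zscan4c at 1 of 227 shared positions, and Zscan4d at 7 of 239. Zscan4b, another coding copy, differed from Zscan4c at 12 of 227. The Pramef cluster held exact copies. The 250 bases before Pramel20 (chr4:143567217-143567466, plus strand) are shown because the same bases also stand before Gm13040 and Gm13057.
Pramel20: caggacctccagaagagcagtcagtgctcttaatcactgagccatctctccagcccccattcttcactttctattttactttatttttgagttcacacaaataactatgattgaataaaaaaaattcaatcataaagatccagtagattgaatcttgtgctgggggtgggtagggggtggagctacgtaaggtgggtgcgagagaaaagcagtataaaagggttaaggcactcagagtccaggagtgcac

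The sequence before Duxf3 (chr10:58233090-58233339, minus strand) is shown as well. None of its stretches of 100 bases, the read length in the labels, occurred in another of the RefSeq promoters. LOC100504180, in the same window as Duxf3, has no entry among these promoters, so it could not be compared.
Duxf3: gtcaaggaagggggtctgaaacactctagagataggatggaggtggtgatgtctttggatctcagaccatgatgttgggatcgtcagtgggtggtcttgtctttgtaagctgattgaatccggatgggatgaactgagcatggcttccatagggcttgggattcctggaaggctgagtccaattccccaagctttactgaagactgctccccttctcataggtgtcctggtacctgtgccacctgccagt

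In all, 12 of the 67 promoters in the 4 intervals (17.9%) shared at least 1 stretch of 100 bases with a promoter elsewhere that did not overlap it, against 1538 of 32851 promoters in the genome (4.68%). These 12 were unevenly placed. Of 21 promoters in steps of the grid that are not in the table, 9 shared a stretch, of 14 in windows without a count 2 did, and of 32 in windows with a count 1 did. Zscan4c and Zscan4f shared 50 of their 201 stretches with each other. Only promoters were compared, so copies elsewhere in the genome were not counted, and whether copied sequence decided which windows are in the table was not tested.

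A large part of each interval is missing from the table. Of the 94 grid steps, 38 (40.4%) are not in it, whereas over the whole grid 3978 of 47919 steps (8.30%) are not. The Zscan4 cluster lacked 12 of 22 (54.5%), against 9.97% of the rest of chromosome 7. The Duxf3 cluster lacked 7 of 16 (43.8%), against 3.12% of the rest of chromosome 10. The Pramef cluster lacked 12 of 34 (35.3%), against 10.7% of the rest of chromosome 4, and the Tcstv cluster 7 of 22 (31.8%), against 6.19% of the rest of chromosome 13. Other tandem families also had high shares. Windows over coding vomeronasal receptor genes outside these intervals were absent at 33.0% of 321 grid steps, those over olfactory receptor genes at 23.7% of 575 and those over zinc finger genes with a Zfp symbol at 17.0% of 523. The differences between these sets were not tested, since neighbouring windows are not independent.

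**Figure D1:**
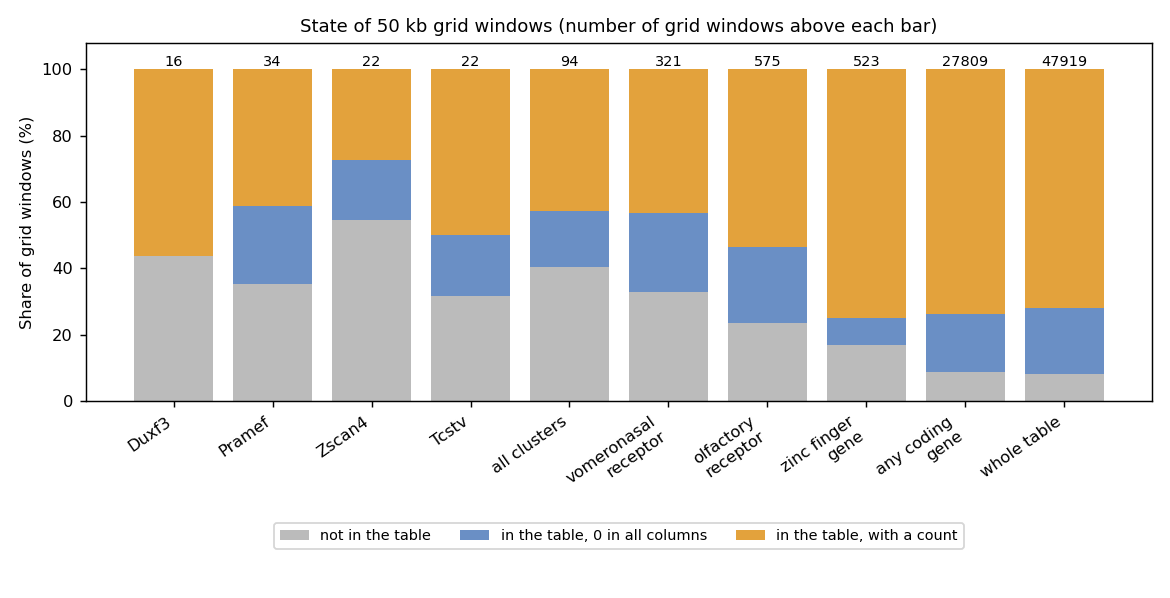
Share of 50 kb grid windows (percent, vertical axis) that are not in the table, are in it at 0 in all 4 columns, or hold a count, for each cluster, for all 4 together, for other gene families and for the whole grid, with the number of grid windows above each bar. The 4 clusters have 31.8% to 54.5% of their windows missing, against 8.30% over the whole grid.

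The missing steps came in runs. In the Duxf3 cluster a single run of 7 covered chr10:57850001-58200000. The annotation places no gene in it, and the nearest coding gene, LOC100504180, starts 22403 bp after its end. In the Pramef cluster the longest run had 6 steps (chr4:143450001-143750000) and overlapped 9 coding genes, from Oog4 to Pramel24. A run of 4 steps (143950001 to 144150000) overlapped Pramel16, Pramel14, Pramel4 and Gm13102, and 2 single steps lay over Pramel27 with Pramel11 and over Pramel13 with 1700012P22Rik. In the Zscan4 cluster the runs had 5 steps (chr7:11200001-11450000, with Zscan4e and Zscan4f), 4 (10800001 to 11000000, with Zscan4b), 2 (11500001 to 11600000, with the pseudogene Zscan4-ps2) and 1 (11050001 to 11100000, with Zscan4-ps1). In the Tcstv cluster 5 steps (chr13:119900001-120150000) overlapped Gm21761, B020031M17Rik, Gm36079, Gm21188 and Gm20767, and 2 (119500001 to 119600000) lay inside Tmem267, a transmembrane protein gene. Over the whole grid there were 1207 runs with a median length of 2 steps, and 130 had 7 or more. Over the 4 clusters together, annotated pseudogenes were densest in the missing steps, with 47 overlaps in 38 steps. There were 16 in 16 windows without a count and 15 in 40 windows with a count. The Zscan4 cluster held 27 of the 47, in 12 missing steps. In the Duxf3 cluster the 7 missing steps had 0, against 2 in 9 windows with a count. Missing steps and windows without a count had 11 in 12 and 5 in 8 (Pramef), and 9 in 7 and 5 in 4 (Tcstv). The density over the whole grid was not computed.

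**Figure D2:**
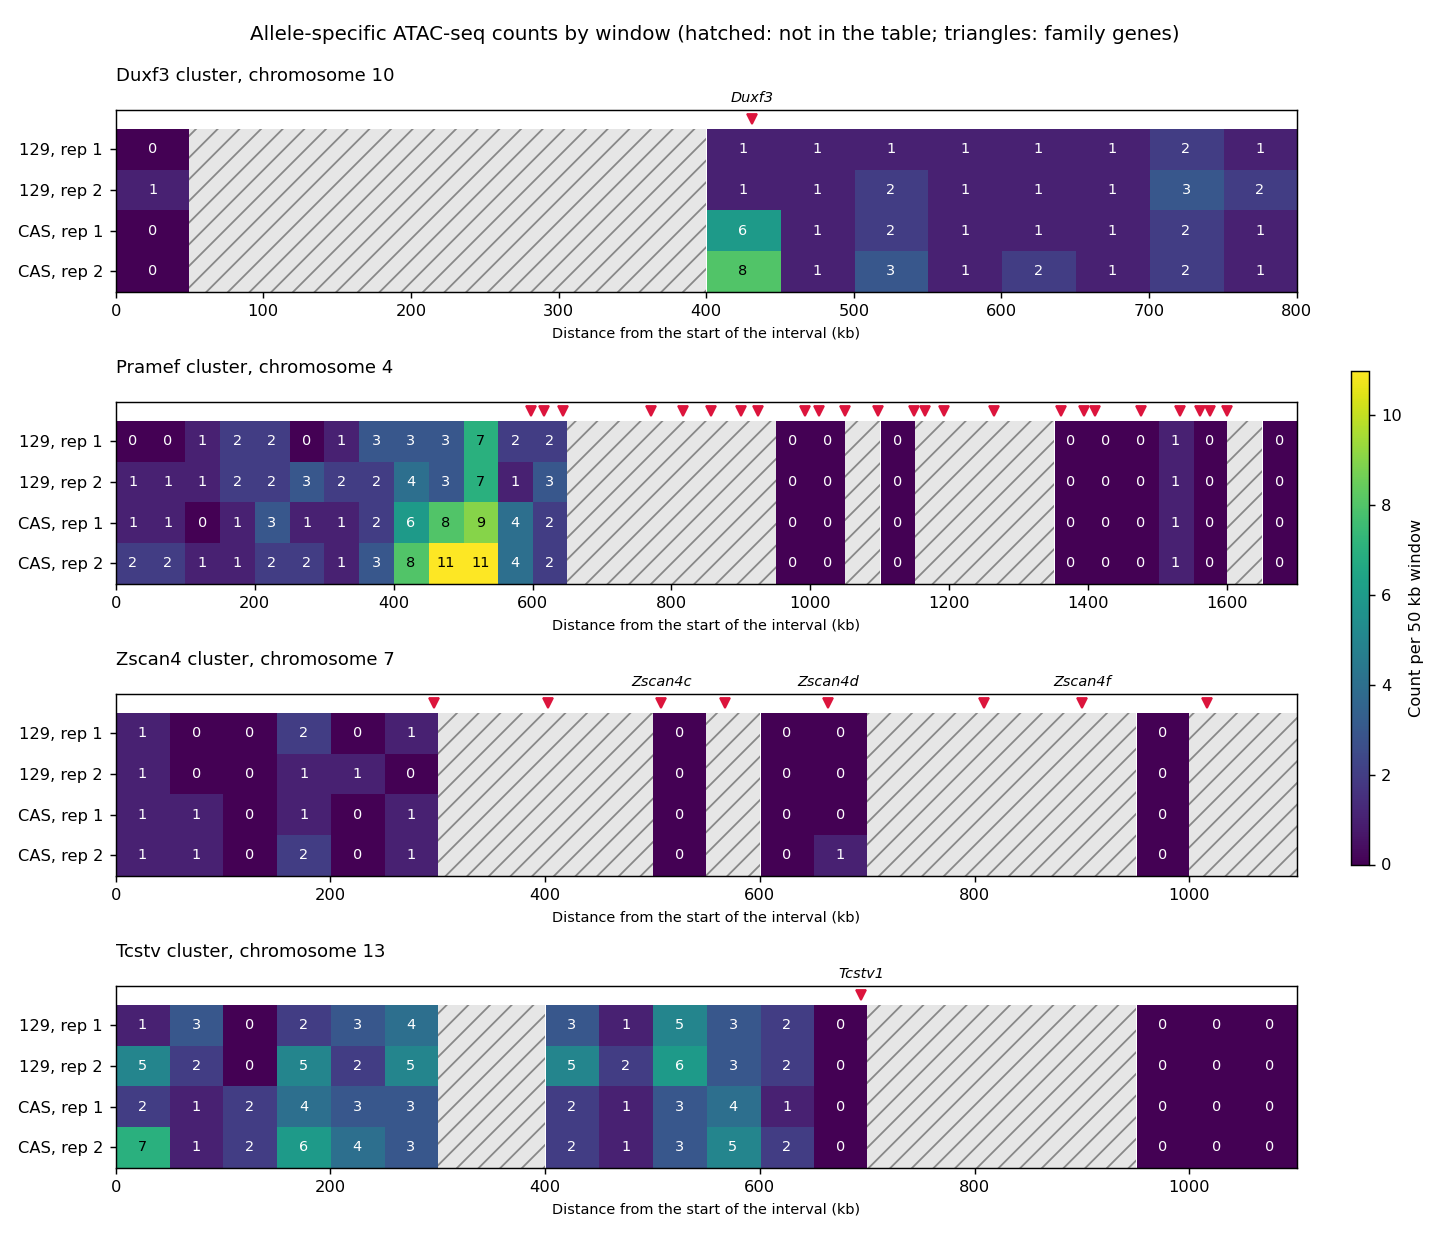
Counts in every 50 kb window of the 4 clusters, 1 panel per cluster, by distance from the start of the interval (kb, horizontal axis) and by allele and replicate (rows, 129 above CAS). Colour and digits give the count, hatching marks steps that are not in the table, and triangles mark genes and pseudogenes whose symbols belong to the family; the highest cell is 11.

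Duxf3 itself lay in a window of the table, the first after the missing run, and this window leaned to CAS in both replicates. The window (chr10:58200001-58250000, which also overlaps LOC100504180 and Gm4981) had 1 count on 129 against 6 on CAS in replicate 1, and 1 against 8 in replicate 2. It was the highest window of its cluster. The 129 share was 14.3% (exact 95% interval 0.361 to 57.9%) and 11.1% (0.281 to 48.2%), with intervals that cover counting error only. Both CAS values lay above both 129 values, whereas the rest of chromosome 10 leaned to 129, with 129 shares of 59.9% and 55.7%. In edgeR's quasi-likelihood fit over all windows the log2 difference (129 over CAS) was -2.66, with an unadjusted p of 0.00178. Its adjusted p was 0.999 after Benjamini-Hochberg adjustment over 34417 windows. The SE derived from the F statistic was 0.29, but 0.14 with the replicate as a block and 0.51 with 1 library size per replicate. This SE therefore does not give the precision of a difference between so few counts. The unadjusted p was 0.00924 with the replicate as a block in edgeR and 0.045 in the DESeq2 Wald test. Limma on centred square roots gave an adjusted p of 0.00163, and 0.28 with the replicate as a block. Since the cluster was proposed with results of this table in view, none of these p-values is evidence for a difference at Duxf3.

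The 8 other windows of the Duxf3 cluster were nearly even between the alleles, with a mean count of 1.25 per window and allele, against 1.11 over the rest of chromosome 10. Their summed counts were 8 (129) against 9 (CAS) in replicate 1 and 12 against 11 in replicate 2. After the Duxf3 window, the highest lay over Ccdc138, a coiled-coil protein gene (58500001 to 58550000), with 2 on 129 and 2 on CAS, then 3 and 2. The window over Gcc2, a golgin gene, and Lims1, which encodes the focal adhesion protein PINCH1 (58300001 to 58350000), had 1 and 2, then 2 and 3. No window of this cluster that is in the table was at 0 in all 4 columns. The window over Smpdl3a (57800001 to 57850000), before the missing run, held a single count, on 129 in replicate 2.

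The Zscan4 genes had almost no counts on either allele. Zscan4c lay in a window (chr7:11000001-11050000) that was at 0 in all 4 columns, and Zscan4d in a window (11150001 to 11200000) with a single count, on CAS in replicate 2. Zscan4f lay across 2 steps (11350001 to 11450000) that are both missing from the table. A count of 0 in 1 column allows a true value of up to 3 there. Where all 4 columns are at 0, as for Zscan4c, counting error alone allows a summed value of up to 3. Openness below these limits was not detectable at this depth, and a count of 0 does not show a closed state. Of the 9 steps over a Zscan4 gene or pseudogene, 6 were missing and 3 were in the table, and the highest of these, over the transcribed pseudogene Zscan4a (10750001 to 10800000), had 1 and 1, then 0 and 1. From 10800001 to the end of the interval, 4 windows in the table held 1 count in all.

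The other counts of the interval lay in its first 6 windows, over vomeronasal receptor genes, Zscan4a and Nlrp4b, a member of a family of oocyte NLR genes. The highest (10650001 to 10700000, over Nlrp4b) had 2 on 129 and 1 on CAS in replicate 1 and 1 on 129 and 2 on CAS in replicate 2. The window of Vmn1r68 (10500001 to 10550000) had 1 in every column. The 129 share of the cluster was 50.0% (15.7 to 84.3%) of 8 counts and 33.3% (7.49 to 70.1%) of 9, and no direction can be read from so few. The mean count per window was 0.400 on 129 against 0.400 on CAS in replicate 1, and 0.300 against 0.600 in replicate 2. These compare with 1.09 and 1.29, then 1.38 and 1.57, over the rest of chromosome 7. Low means are not particular to this cluster. Windows over vomeronasal receptor genes outside the intervals had 0.465 and 0.409, then 0.819 and 0.786. Those over olfactory receptor genes had 0.606 and 0.651, then 1.07 and 1.12. Zinc finger gene windows were higher, with 1.84 and 1.91, then 1.87 and 1.92.

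The Tcstv genes gave no counts, while the windows in the table before Tcstv1 did. Tcstv1 lay in a window (chr13:119850001-119900000) at 0 in all 4 columns. Tcstv3 (120316862 to 120318261) lies past the end of the interval, in the next window of the table (120300001 to 120350000), shared with BC147527, and this was also at 0 in all 4 columns. The 3 windows before it, which overlap AF067061, Gm21818 and part of Gm20767 or no coding gene, were at 0 as well. From Tcstv1 to Tcstv3, then, all 5 windows in the table were at 0 and the 5 steps between them are missing.

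By contrast, all 11 windows in the table before Tcstv1 held counts, with 27 on 129 against 26 on CAS in replicate 1, and 37 against 36 in replicate 2. The last of them, next to Tcstv1 and over AF067063 (119800001 to 119850000), had 2 on 129 and 1 on CAS, then 2 and 2. The highest total, 17 counts over the 4 columns, was shared by 2 windows. The first lay over Nnt, the mitochondrial nicotinamide nucleotide transhydrogenase gene (119350001 to 119400000), with 2 and 4, then 5 and 6. The other, over Hmgcs1, the cytosolic HMG-CoA synthase of cholesterol synthesis, and the kinase gene Nim1k (119700001 to 119750000), had 5 on 129 and 3 on CAS, then 6 and 3. An intergenic window 85527 bp from Nnt (119200001 to 119250000) had 1 and 2, then 5 and 7. Another Nnt window (119300001 to 119350000) had 0 on 129 in both replicates and 2 on CAS in both. The cluster as a whole was even, with a 129 share of 50.9% (36.8 to 64.9%) and 50.7% (38.7 to 62.6%), against 47.4% and 48.3% over the rest of chromosome 13.

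The Pramef interval fell into 2 parts, with counts up to the first PRAME-like genes and almost none after them. From 143450001 to its end, 9 windows were in the table, and 8 of them were at 0 in all 4 columns. The exception, over Pramel30 (chr4:144300001-144350000), had 1 in every column. Of the 23 coding genes with a Pramel or Oog symbol, 7 lay only in missing steps, 12 lay in windows at 0 and 4 in a window with a count. These 4 were Pramel1, Pramel12 and Oog4, at the edge next to the single-copy genes, and Pramel30. Pramel12 and Oog4 shared a window (143400001 to 143450000) with 2 and 2 counts, then 3 and 2.

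The highest windows of the interval overlapped Lrrc38, Pdpn and the high-coordinate end of Prdm2, and these leaned to CAS. Prdm2 encodes a histone methyltransferase of the PR domain family, Pdpn the membrane glycoprotein podoplanin, and Lrrc38 an auxiliary subunit of BK potassium channels. The Lrrc38 window (143300001 to 143350000) had 7 on 129 against 9 on CAS in replicate 1, and 7 against 11 in replicate 2. By coordinate Pdpn ends at 143299564 and Lrrc38 begins at 143347076, so most of this window lies between the genes. Where in a window the counts lie is not given. The Pdpn window (143250001 to 143300000) had 3 and 8, then 3 and 11. The Prdm2 window with the highest coordinates (143200001 to 143250000) had 3 and 6, then 4 and 8. The window shared by Lrrc38 and Pramel1 (143350001 to 143400000) had 2 and 4, then 1 and 4. In each of these 4 adjacent windows both CAS values lay above both 129 values, and together they had 129 shares of 35.7% and 30.6%, though they were put together after their values were seen. The 8 windows before them were even, with 9 and 10, then 14 and 14. The 129 share of the whole interval was 40.3% (28.5 to 53.0%) of 67 counts and 39.3% (28.8 to 50.5%) of 84, against 47.6% and 48.6% over the rest of chromosome 4.

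The windows at the limits of the intervals are given here on both sides. The outermost windows inside had 0 and 0, then 1 and 0 (129 and CAS, start of Duxf3), 1 and 1, then 2 and 1 (its end), 0 and 1, then 1 and 2 (start of Pramef) and 0 throughout (its end). Just outside, the windows had 1 and 1, then 3 and 2, and 0 and 0, then 1 and 1 around Duxf3, and 0 and 0, then 1 and 1, and 3 and 1, then 3 and 3 around Pramef. The step before the Zscan4 interval had 1 and 1, then 1 and 2, the first window inside had 1 in every column, the last step inside is missing and the next one outside was at 0. For Tcstv the window before the interval had 0 and 0, then 0 and 4, and the first inside had 1 and 2, then 5 and 7.

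**Figure D3:**
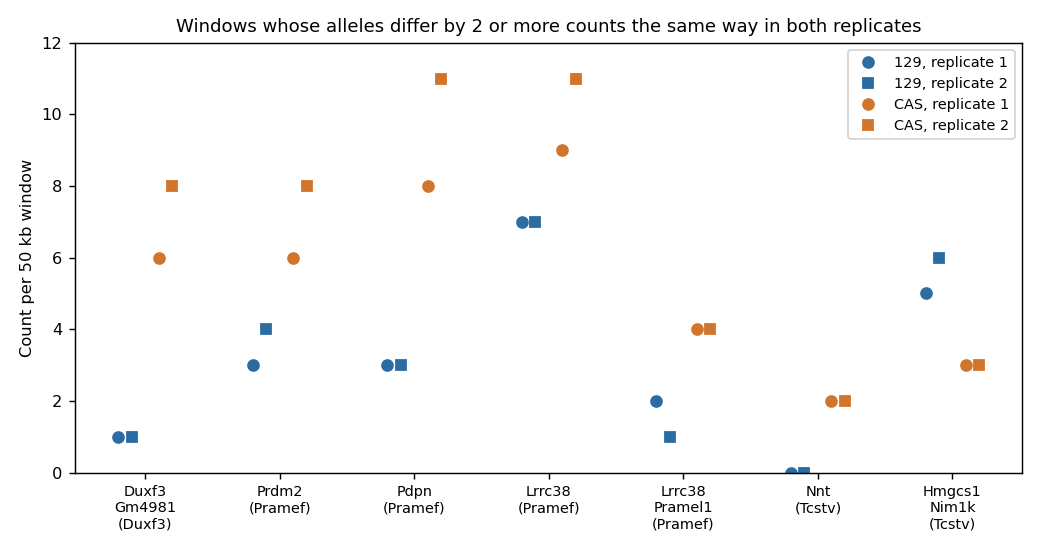
Counts per 50 kb window (vertical axis) on 129 (left of each position) and CAS (right) in replicate 1 (circles) and replicate 2 (squares), for the 7 cluster windows whose alleles differ by 2 or more counts the same way in both replicates. CAS is higher in 6 of them and 129 in 1, the Hmgcs1 and Nim1k window.

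Across the 4 clusters, 6 of 56 windows were higher on CAS by 2 or more counts in both replicates and 1 was higher on 129. Of all windows in the table, 1.5% met this on the CAS side and 1.26% on the 129 side. The 6 were the Duxf3 window, the 4 adjacent windows from Prdm2 to Pramel1, which are neighbours and not independent, and the Nnt window with 0 on 129. Without overlap between the alleles' values there were 8 CAS windows (6.83% of the table) and 5 129 windows (6.37%). A difference of 5 or more counts towards CAS in both replicates, a limit chosen after the values were seen, was met by 0.0205% of the table (9 windows), 2 of them here, over Duxf3 and Pdpn.

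No cluster window passed the fit across all windows. edgeR tested 40 of the 56, those with a count, and called 0 (0% of 34417 windows called), with 3 of the 40 at an unadjusted p under 0.05 and 910 of all windows. These 3 were the Duxf3 window, the Pdpn window (log2 difference -1.62, adjusted p = 0.999 with edgeR) and the Nnt window with 0 on 129. With the replicate as a block edgeR called 0 as well, with 2 of the 40 and 65 of all 34417 windows at an unadjusted p under 0.05. The DESeq2 Wald test also called 0, with 1 cluster window and 11 of all 34417 at an unadjusted p under 0.05. Limma on centred square roots called 2, both higher on CAS, over Duxf3 and Pdpn (adjusted p = 0.019), where it called 0.131% of all windows on the CAS side and 0.0959% on the 129 side. A replicate block took the limma calls to 0 (0% of windows), with 11 of 40 cluster windows and 5091 of all 34417 at an unadjusted p under 0.05. Limma over every row of the table, windows at 0 included, called 3 of 56 cluster windows, all higher on CAS, where it called 0.744% of all windows on the CAS side and 0.665% on the 129 side. Of 500 kb bins, with the block in edgeR, 0 of the 10 that touch a cluster were called (0.0428% of all bins), with 2 of the 10 and 240 of all 4675 bins at an unadjusted p under 0.05.

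**Figure D4:**
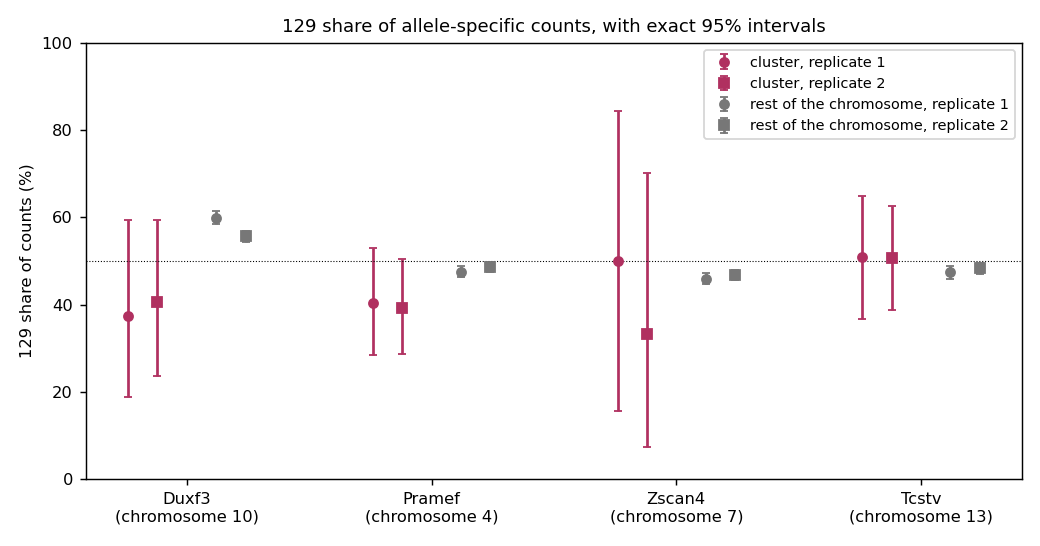
129 share of the counts (percent, vertical axis) in each cluster (red) and in the rest of its chromosome (grey), in replicate 1 (circles) and replicate 2 (squares), with exact 95% intervals for counting error. The Duxf3 cluster lies at 37.5% and 40.6%, against 59.9% and 55.7% over the rest of chromosome 10, and the Tcstv cluster lies at 50.9% and 50.7%.

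By cluster, the 129 share of the Duxf3 interval was 37.5% (18.8 to 59.4%) of 24 counts in replicate 1 and 40.6% (23.7 to 59.4%) of 32 in replicate 2, or 39.1% ± 2.21 (SD, n = 2). That value rests on the Duxf3 window, without which it was 49.6%. The other means over the replicates were 39.8% ± 0.716 for the Pramef cluster, 41.7% ± 11.8 for the Zscan4 cluster and 50.8% ± 0.183 for the Tcstv cluster (SD, n = 2 each). The level of the windows in the table differed too. The mean count per window and allele over both replicates was 1.56 in the Duxf3 cluster, 1.72 in the Pramef cluster, 0.425 in the Zscan4 cluster and 2.10 in the Tcstv cluster, against 1.19 over the whole table. The 15 windows in the table that overlap a family gene averaged 0.733, and 9 of them were at 0. Of their 44 counts, 16 lay in the Duxf3 window. The other 41 averaged 1.87, and 7 were at 0. Of the 56 cluster windows 28.6% were at 0, against 21.7% of the whole table. By cluster the share at 0 was 0% (Duxf3), 36.4% (Pramef), 40.0% (Zscan4) and 26.7% (Tcstv). Over the rest of the same chromosomes it was 22.0%, 21.7%, 20.1% and 24.8%, in that order. These differences were not tested.

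Of a list of 20 other 2-cell-stage genes, which includes Zscan4a, Zscan4b and Zscan4e, 9 lay only in missing steps, 4 in windows at 0 and 7 in windows with a count. Tdpoz1, Tdpoz2, Tdpoz4 and Tdpoz5, which belong to a family of TD and POZ domain genes on chromosome 3, were missing, and Tdpoz3 was at 0. Among the Usp17l deubiquitinase genes on chromosome 7, Usp17la, Usp17lb and Usp17ld were at 0, Usp17lc had a single count, on 129 in replicate 2, and Usp17le had 0 and 1, then 1 and 1. Duxbl1, a Dux-like gene on chromosome 14, and the genes Sp110 and Tmem92 lay only in missing steps. Genes of the list with more counts were Ddit4l, with 2 and 3, then 4 and 3, and the mitochondrial arginase gene Arg2, with 3 in every column. Zfp352, a zinc finger gene strongly expressed in 2-cell embryos, had 1 in every column.

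All 12 genes of a list of Dux regulators lay in windows with a count, and all but Zmym2 had counts on both alleles. Outside the clusters, 80.9% of the windows in the table that overlap a coding gene held a count. Several of the 12 overlap more than 1 window, which makes a count more likely, so this says little about these genes. Dppa2 and Dppa4, nuclear proteins that activate Dux and lie side by side on chromosome 16, had 7 (129) and 5 (CAS), then 12 and 9, and 7 and 7, then 9 and 8. Trim28, a corepressor that holds Dux and many retroelements silent, had 8 and 11, then 9 and 10. The gene of the large subunit of chromatin assembly factor 1, Chaf1a, had 10 and 9, then 10 and 11, and Chaf1b had 5 and 5, then 3 and 3. Smchd1, a repressor of Dux, had 3 and 4, then 5 and 4, over 4 windows. Zmym2 was the lowest of the 12, with 0 and 1 in each replicate over 3 windows. No missing step overlapped any of the 12, where 8.80% of grid steps over a coding gene outside the clusters were missing.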

How the data were processed

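The deposited table gives whole-number counts per 50 kb window of mm10, in 4 columns (2 alleles by 2 replicates); 0 other columns hold per-sample values. Bowtie2, bedtools, SAMtools and MACS2 appear in the submitters' processing notes, with no version and no stated role. The sources used here do not give what was counted, how alleles were assigned or why windows are missing. Window starts were read as 0-based and are printed 1-based.

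A grid step between a chromosome's outermost windows is called missing if the table has no row for it. Genes came from RefSeq on GRCm38.p6, matched by symbol, and sharing 1 base counted as overlap. Promoters (250 bases before to 50 after a start) came from the same release and were aligned with Biopython 1.88 without penalty for end gaps. Stretches of 100 bases were matched exactly on both strands.

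Alleles were compared over all 34417 windows with a count, with edgeR 4.0.16 (quasi-likelihood, TMM, Benjamini-Hochberg, adjusted p threshold 0.05) in R 4.3.3. Alternatives used DESeq2 1.42.0 and limma 3.58.1 on square roots (count plus 0.375), column means subtracted. Both alleles of a replicate were read from the same library, which pairs them by number. Their deviations from the allele means correlated at r = 0.252 over 34417 windows. Shares have exact Clopper-Pearson 95% intervals from scipy 1.17.1. Windows to describe were the named genes' own, the 3 highest of each cluster, and those with a difference of 2 or more counts the same way in both replicates. The members and gene lists were chosen with earlier results of these data known. The result for 1 window outside the clusters is not reported here.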

Additional observations from a re-analysis of the deposited data

How the results depend on the processing

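When the bounds were widened or trimmed by 250 kb, the share of missing steps kept within its exact 95% interval in all 4 clusters. Those intervals are wide (19.8 to 70.1% for Duxf3) and the sets share steps, so this says little about stability. With wider, then trimmed bounds the share was 26.9% and 50.0% (Duxf3) and 29.5% and 45.8% (Pramef). It was 37.5% and 66.7% for Zscan4, and 25.0% and 41.7% for Tcstv. The allelic shares changed too. With bounds widened by 250 kb the 129 share was 49.0% (Duxf3), 41.9% (Pramef) and 48.6% (Tcstv). With bounds trimmed by 250 kb it was 25.0% (Duxf3), 38.1% (Pramef), 25.0% (Zscan4) and 57.6% (Tcstv). With windows scored only as with or without a count it was 51.5% (Duxf3), 47.9% (Pramef) and 47.6% (Tcstv). Without the highest window it was 49.6% (Duxf3) and 52.4% (Tcstv, where the Nnt window was left out of 2 with the same total).

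The mean count per window and allele, with missing windows taken as 0, was 0.875 (Duxf3), 1.11 (Pramef), 0.193 (Zscan4) and 1.43 (Tcstv). Without the highest window it was 1.39 (Pramef) and 0.306 (Zscan4), and with wider bounds 1.40 (Pramef) and 0.487 (Zscan4). Leaving out either replicate gave shares of 37.5 to 40.6% (Duxf3), 39.3 to 40.3% (Pramef), 33.3 to 50.0% (Zscan4) and 50.7 to 50.9% (Tcstv). The means then ran from 1.33 to 1.78, 1.52 to 1.91, 0.400 to 0.450 and 1.77 to 2.43 in the same order. Apart from the changes that follow from using fewer or other windows, the cause was not tested.

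Cluster windows called different between the alleles numbered 0 in edgeR, also with the replicate block (0 of all windows), and 2 in centred limma (78 of all windows). Centred limma over all 43941 windows, added after seeing the data, called 3 (619 of all windows). edgeR with 1 library size per replicate called 0 here (1 of all windows), and 500 kb bins with the block 0 (2 of 4675). The usual filter at a minimum count of 10 kept none of the cluster windows. Single replicates have no residual degrees of freedom, so they gave values without a test. The 7 windows that differed by at least 2 counts kept their direction in every alternative run. Their choice by direction in both replicates fixed this in advance, since each run used the same counts. With 0 to 11 counts per window and unknown read depth, differences of a few counts cannot be resolved.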

Other observations

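The longest runs of missing steps elsewhere in the grid also lay over tandem gene families. The run of 42 steps at chr5:93700001-95800000 overlapped 28 coding genes, among them Pramel35 to Pramel50, members of the same PRAME-like family as the Pramef cluster. The longest, 56 steps at chr7:7200001-10000000, overlapped Vmn2r vomeronasal receptor genes and ended 500 kb before the Zscan4 interval. The others were 45 steps at chr2:88350001-90600000 (olfactory receptor genes), 43 at chr7:21150001-23300000 (Vmn1r receptor genes) and 38 at chr17:38000001-39900000 (olfactory receptor and Esp genes).

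Windows outside the clusters also had 5 or more CAS counts above 129 in both replicates, as over Duxf3 and Pdpn, and 6 of them, picked after their values were seen, are given here. They overlapped Cwc22 (1 on 129 and 6 on CAS in replicate 1, then 1 and 13), Map4k3 (0 and 6, then 1 and 8), Klhl25 (1 and 7, then 3 and 8) and Ibtk (1 and 8, then 2 and 7), or lay outside coding genes, with Vmn2r68 (0 and 6, then 2 and 14) and Adam6a (0 and 7, then 1 and 7, at a distance of 403587 bp) as the nearest.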
